A study of Homo sapiens with 12 samples.

Results

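The genes described here belong to the insulin-like growth factor (IGF) system, measured as human embryonic stem cells differentiated toward blood. They were chosen by gene symbol and number 10: the ligand IGF1, the receptors IGF1R, IGF2R and INSR, and the binding proteins IGFBP2, IGFBP3, IGFBP4, IGFBP5, IGFBP6 and IGFBP7. All 10 were found, each on 1 line, among 56593 distinct symbols of the expression table. H1, an established embryonic stem cell line, supplied every sample, either undifferentiated or as cells sorted from H1 cultures for APLNR on day 2, for CD31 and CD34 on day 5, or for CD43 on day 8. The study calls these sorted populations mesoderm (APLNR+), hemogenic endothelial progenitors (CD31+CD34+) and hematopoietic progenitors (CD43+). Differentiation was driven by activin A and BMP4, followed by VEGF and bFGF, in a custom mTeSR1 medium. Each of the 4 populations had 3 libraries. All come from a single line, and the labels do not say whether the libraries of a population came from separate cultures, although the methods speak in general of independent experiments, so p-values measure the spread between these libraries, which may be technical.

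IGF1 and IGF2 are secreted growth factors that act mainly through IGF1R, a receptor tyrosine kinase closely related to the insulin receptor INSR. IGF2R binds IGF2 and carries it to lysosomes without signaling as a kinase. The IGF binding proteins hold the ligands outside the cell, and depending on the context they restrain, store or deliver them. Proteases that cut the binding proteins release the ligand. Stem cell, endothelial and blood progenitor cultures all use this pathway for survival and growth.

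Expression is given as FPKM, a fragment count divided by transcript length and library size, so that levels may be set side by side between genes. The summed FPKM of a library ran from 568036 to 1576040, so comparisons between libraries also depend on the scaling. The total number of reads is not in the table. Relative depth was estimated from the most frequent ratio of low values to those of CD43+ replicate 3. It ranged from 0.551 to 1.27, and replicate 1 was the shallowest library of each population. In the other libraries that ratio rested on 50 to 214 genes, out of 2445 to 3682 with low values, so it is a rough estimate. The genes of the sorted proteins stood above their level in the population before. APLNR averaged 383 ± 22.3 FPKM in APLNR+ cells (SD, n = 3), against 0.528 FPKM before. In CD31+CD34+ cells PECAM1 (CD31) averaged 55.2 ± 4.10 and CD34 47.7 ± 7.08 FPKM, against 0.0997 and 0.981. SPN (CD43) averaged 75.5 ± 15.2 FPKM in CD43+ cells, against 3.70. CD34 and SPN were highest in the population sorted for them. APLNR was as high in CD31+CD34+ cells (403 ± 24.6 FPKM), and PECAM1 was higher in CD43+ cells (95.9 ± 11.7 FPKM). In all populations these are levels in bulk RNA, in which fewer cells of a type and less RNA per cell cannot be told apart.

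Changes were tested with limma on log2(FPKM + 1) across 14840 genes, with Benjamini-Hochberg adjustment over all of them, and genes were called raised or lowered where this p was under 0.05 and the fitted change reached 2-fold. The added 1 understates changes of genes at low levels. All 10 genes passed the filter of 1 FPKM in at least 3 libraries, IGF1 through its CD31+CD34+ libraries alone. Consecutive comparisons share the population between them and are not independent of each other.

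From H1 to APLNR+ cells, the binding proteins IGFBP3, IGFBP4 and IGFBP7 were raised and IGFBP2 was lowered, which makes 3 of 10 genes raised where 8.3% of all genes tested were, and 1 lowered where 7.62% were. At the step to CD31+CD34+ cells 6 of the 10 genes were raised (IGF1, IGFBP2, IGFBP4, IGFBP5, IGFBP6 and IGFBP7) and 0 lowered, against 12.5% and 17.1% of all genes. Wherever IGF1 is counted here, it entered the test through its CD31+CD34+ libraries alone. At the step to CD43+ cells IGFBP3 alone was raised, and IGF1, IGFBP4 and IGFBP6 were lowered, against backgrounds of 5.58% and 8.79%. The median log2 change over the 10 genes was 0.66, 1.70 and -0.52 at these steps, while the median over all genes tested was -0.12, -0.01 and -0.00. In CD43+ cells against H1, the first and last population, IGFBP3, IGFBP4, IGFBP5 and IGFBP7 were raised and INSR and IGFBP6 lowered (14.6% and 22.5% of all genes). This count of 4 and 2 became 5 and 2 with upper-quartile scaling and 4 and 1 under quantile normalization. In CD31+CD34+ cells against H1, 6 genes were raised (IGF1, IGF2R, IGFBP4, IGFBP5, IGFBP6 and IGFBP7) and 0 lowered, where 16.9% and 23.2% of all genes were (40.1% in all). In CD43+ against APLNR+ cells, 4 were raised (IGFBP2, IGFBP4, IGFBP5 and IGFBP7) and 0 lowered, where 14.1% and 19.4% were (33.6% in all). By adjusted p alone, with no minimum change, 9, 8 and 7 of the 10 genes passed at the consecutive steps against 57.9%, 73.8% and 53.6% of all genes, 8 between CD43+ and H1 against 74.6%, and all 10 in the remaining pairs against 77.3% and 74.1%. Populations were without overlap between their libraries for 10, 9 and 6 of the 10 genes at the consecutive steps, where 66%, 75.7% and 58% of all genes were, and for 9 in each of the other 3 pairs, where 76.3% (CD43+ and H1), 79% (CD31+CD34+ and H1) and 75.4% (CD43+ and APLNR+) were.

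**Figure D1:**
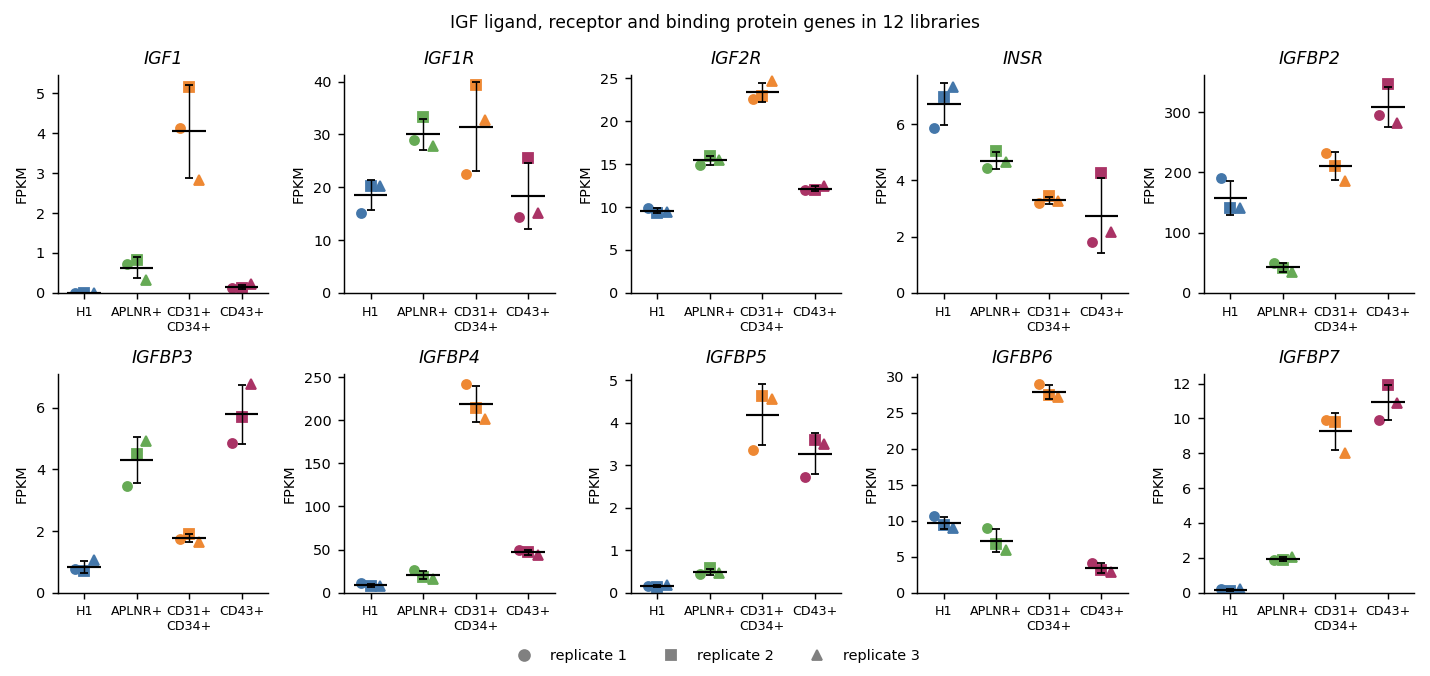
FPKM (vertical axis, linear, from 0) of the 10 genes in each of the 12 libraries, grouped by population; marker shapes give the replicate, horizontal bars the mean and error bars the SD (n = 3). IGF1, IGF2R, IGFBP4 and IGFBP6 stand highest in all 3 CD31+CD34+ libraries, while IGFBP2 is lowest in the 3 APLNR+ libraries.

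**Figure D2:**
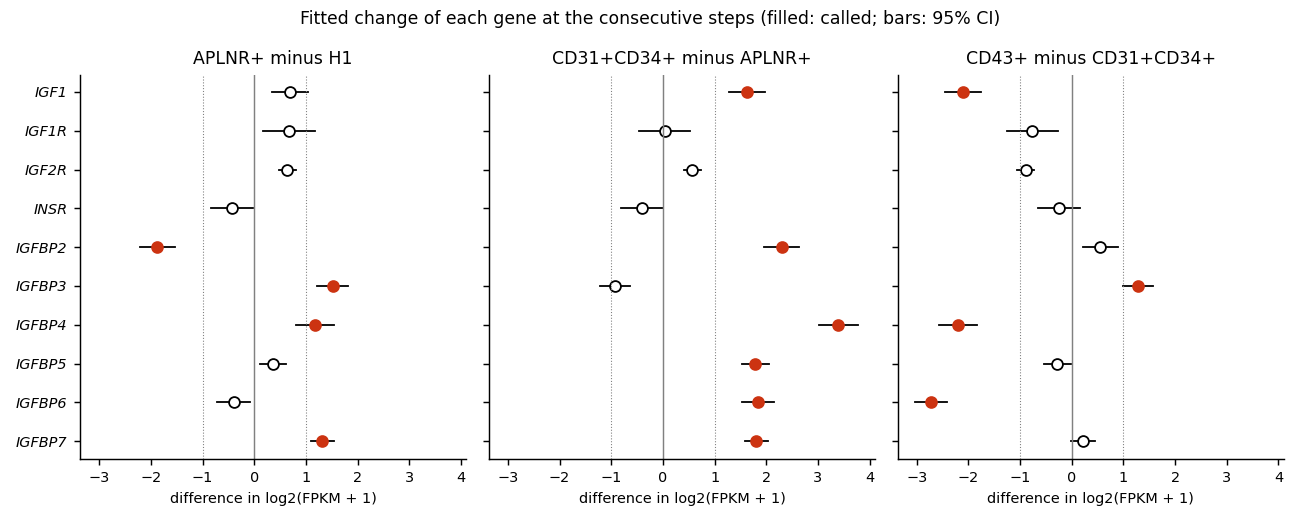
Fitted difference in log2(FPKM + 1) (horizontal axis) of each of the 10 genes at the 3 consecutive steps, with 95% confidence intervals from limma; filled points are called and dotted lines mark a 2-fold change. At the middle step 6 points are filled, all to the right of 0, and the 3 receptor genes have open points at every step.

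IGF1 was highest in the CD31+CD34+ libraries. It was listed at 0.00231, 0 and 0 FPKM in the 3 H1 libraries and at 0.719, 0.828 and 0.328 FPKM in APLNR+ cells. In CD31+CD34+ cells it had 4.14, 5.17 and 2.84 FPKM, and in CD43+ cells 0.112, 0.129 and 0.214 FPKM. The CD31+CD34+ libraries stood above all others, and the 4 populations did not overlap in any pair. The rise from APLNR+ to CD31+CD34+ cells was 1.62 ± 0.16 on the log2 scale (SE, limma adjusted p 1.89e-06) and the change to CD43+ cells was -2.11 ± 0.16 (adjusted p 3.75e-07). Both p-values are affected by the filter, which IGF1 passed through its CD31+CD34+ libraries alone. As FPKM, the mean in CD31+CD34+ cells was 6.48 times that in APLNR+ cells. CD43+ and H1 cells, at the bottom of the order, differed by 0.20 (adjusted p 0.267, interval from -0.15 to 0.55). These low levels depend on the pseudocount: with 0.1 in place of 1, IGF1 was called in CD43+ against H1 (1.30, adjusted p 0.00264), in APLNR+ against H1 (2.77, where the added 1 gave 0.69) and in CD43+ against APLNR+ cells (-1.47, where it gave -0.48). A value of exactly 0 in this table is not proof of absence: EEF1A1, which encodes a translation elongation factor needed in all cells, has a value of 0 in 6 of the 12 libraries, namely replicates 2 and 3 of H1, APLNR+ and CD43+ cells. Replicate 1 was also set apart from the others. Each of the 30 called changes of the 10 genes over the 6 pairs had the same sign within replicate 1 and within replicates 2 and 3. The calls came from these same libraries, so this agreement is close to built in and adds no support. With replicates 2 and 3 alone IGF1 did not reach the filter and has no test.

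IGF2, the other ligand and not one of the 10, took another course. Its 3 libraries had 0.165, 0.0759 and 0.0313 FPKM in H1, 0.883, 0.655 and 0.539 in APLNR+ cells, 3.26, 3.63 and 3.05 in CD31+CD34+ cells and 34.1, 35.2 and 26.4 in CD43+ cells. Each population lay above the one before, without overlap. It was called at the last 2 steps, by 1.35 ± 0.12 (adjusted p 1.07e-06) and then 2.92 ± 0.12 on the log2 scale (adjusted p 2.92e-09). The ligands were at like levels in CD31+CD34+ cells, where IGF2 was between 0.703 and 1.07 times IGF1 in the 3 libraries, and far apart in CD43+ cells, where IGF2 was between 123 and 305 times IGF1. The table lists the overlapping read-through gene INS-IGF2 at no more than 1.59e-30 FPKM, so shared reads went to IGF2, and the split between them is an estimate. INS, the insulin gene, was listed at 0 in the 12 libraries.

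**Figure D3:**
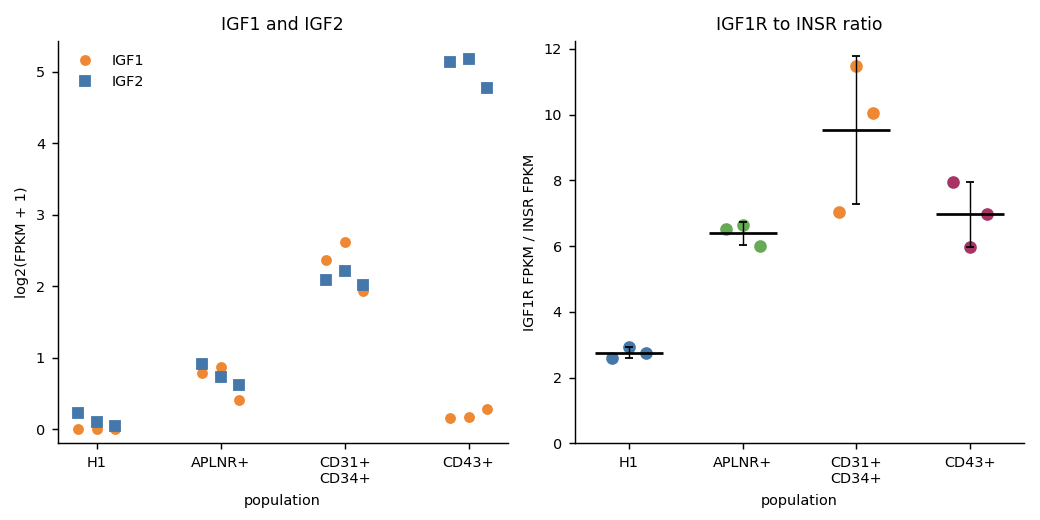
Left, log2(FPKM + 1) of IGF1 (circles) and IGF2 (squares) in the 3 libraries of each population; right, the ratio of IGF1R to INSR FPKM per library, with the mean (bar) and SD (n = 3). IGF1 and IGF2 part in CD43+ cells, and the IGF1R to INSR ratio is lowest in the H1 libraries, between 2.59 and 2.92.

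None of the 3 receptor genes was called at a consecutive step, where their log2 changes lay between -0.89 and 0.67. Of all genes, 15.9%, 29.6% and 14.4% were called at these steps, so 3 genes without a call are not unusual. For IGF1R, the main signaling receptor for IGF1 and IGF2, the H1 libraries had 15.2, 20.3 and 20.2 FPKM and the APLNR+ libraries 28.9, 33.4 and 27.8 FPKM. It had 22.5, 39.3 and 32.7 FPKM in CD31+CD34+ cells and 14.4, 25.5 and 15.04 FPKM in CD43+ cells. The APLNR+ libraries lay above the H1 libraries (log2 change 0.67 ± 0.23, adjusted p 0.0233), a change under 2-fold. CD31+CD34+ libraries spread widely and overlapped those of APLNR+ cells (0.03, adjusted p 0.898, interval from -0.46 to 0.53), and the sign of this difference depended on the replicate, at -0.35 within replicate 1 and 0.23 within replicates 2 and 3. At the step to CD43+ cells the change was -0.76 ± 0.23 (adjusted p 0.0138), and it reached -1.01 without CD43+ replicate 2, the highest of its population. CD43+ and H1 cells differed by -0.05 (adjusted p 0.843, interval from -0.55 to 0.44).

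IGF2R, which clears IGF2, was the least variable of the receptors between replicates. Its values were 9.89, 9.33 and 9.47 FPKM in H1, 14.9, 16.0 and 15.4 in APLNR+ cells, 22.6, 22.9 and 24.7 in CD31+CD34+ cells and 11.95, 11.98 and 12.5 FPKM in CD43+ cells. No pair of populations overlapped. The order was CD31+CD34+, APLNR+, CD43+ and H1, and each neighbouring pair passed an adjusted p of 0.05 (2.5e-05, 0.00184 and 0.00225) with a change under 2-fold. The difference between CD31+CD34+ and H1 cells, 1.21 ± 0.08, was called (adjusted p 2.03e-08). From CD31+CD34+ to CD43+ cells the change was -0.89 ± 0.08 (adjusted p 1e-06).

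INSR, the insulin receptor gene, was lowered in CD43+ cells against H1, with intermediate levels between. H1 libraries had 5.87, 6.94 and 7.31 FPKM, APLNR+ libraries 4.43, 5.03 and 4.64, CD31+CD34+ libraries 3.19, 3.43 and 3.25 and CD43+ libraries 1.81, 4.27 and 2.16. The first 3 populations did not overlap, and CD43+ replicate 2 stood above all CD31+CD34+ libraries. Neighbours in this order did not pass the test (adjusted p 0.0672, 0.0664 and 0.280), with log2 changes of -0.43, -0.41 and -0.25. CD43+ against H1 was called, at -1.09 ± 0.19 (adjusted p 0.000187). It fell short of 2-fold without CD43+ replicate 1 (-0.91) or, narrowly, CD43+ replicate 3 (-0.997), with quantile normalization (-0.93) and with replicates 2 and 3 alone (-0.99). Splice forms of INSR, which differ in their affinity for IGF2, cannot be read from a value per gene.

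Within each library, IGF1R stood above INSR. Their ratio was 2.76 ± 0.167 (H1), 6.39 ± 0.347 (APLNR+), 9.53 ± 2.26 (CD31+CD34+) and 6.97 ± 0.992 (CD43+; SD, n = 3). The H1 libraries had the lowest 3 ratios of the 12, and those of the 3 sorted populations overlapped in part. INSR made up 19.2% of the summed FPKM of the 3 receptors in H1 and between 5.22% and 10.2% in the sorted populations. These ratios are given as descriptions.

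IGFBP2 was the most abundant binding protein transcript in H1, APLNR+ and CD43+ libraries, and it was the only 1 of the 6 called lowered at the first step. The H1 libraries had 190.2, 142 and 140.3 FPKM and the APLNR+ libraries 49.6, 41.8 and 35.1 FPKM. It returned to 233, 212 and 186 FPKM in CD31+CD34+ cells and reached 296, 347 and 283 FPKM in CD43+ cells. The log2 change was -1.87 ± 0.15 (adjusted p 6.51e-07), and the following rise was 2.30 ± 0.15 (adjusted p 6.89e-08). CD43+ libraries lay above CD31+CD34+ libraries without reaching 2-fold (0.55, adjusted p 0.0093), and CD31+CD34+ and H1 libraries overlapped (0.42, adjusted p 0.0235). CD43+ against H1 was 0.98 ± 0.15, just short of the limit, and passed it with upper-quartile scaling (1.09) and without H1 replicate 1 (1.12).

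The protein of IGFBP4 is the classical substrate of the protease PAPPA. On the log2(FPKM + 1) scale this gene had the largest change of the 10 at any consecutive step. H1 libraries had 10.7, 7.26 and 7.13 FPKM and APLNR+ libraries 25.7, 18.5 and 16.4. In CD31+CD34+ cells it had 242, 214 and 202 FPKM and in CD43+ cells 49.4, 47.6 and 43.6 FPKM. The 4 populations did not overlap, and the step to CD31+CD34+ cells was 3.40 ± 0.17 on the log2 scale (adjusted p 6.21e-09), a 10.8-fold higher mean FPKM. The first step was 1.17 ± 0.17 (adjusted p 9.41e-05), and it was 0.99 without APLNR+ replicate 1. The last step was -2.20 ± 0.17 (adjusted p 4.75e-07), and the difference of CD43+ from H1 cells was 2.37 ± 0.17 (adjusted p 7.67e-08). As a ratio of mean FPKM, IGFBP7 changed more at the first step (11.2 times). So did IGF1 at the first and last steps, both genes at lower levels than IGFBP4.

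IGFBP6, which prefers IGF2 over IGF1, also peaked in CD31+CD34+ cells. Its values were 10.7, 9.41 and 9.001 FPKM in H1, 8.97, 6.73 and 5.87 in APLNR+ cells, 29.0, 27.4 and 27.2 in CD31+CD34+ cells and 4.15, 3.19 and 2.87 FPKM in CD43+ cells. CD31+CD34+ libraries were tightly grouped and highest, and CD43+ libraries were lowest. The rise to CD31+CD34+ cells was 1.83 ± 0.14 (adjusted p 2.63e-07) and the change to CD43+ cells -2.72 ± 0.14 (adjusted p 1.71e-08), and CD43+ against H1 was -1.29 (adjusted p 4.31e-06). H1 and APLNR+ cells differed by less than 2-fold (-0.40, adjusted p 0.0309). Markers of several cell types also varied between the populations. The 8 mesenchymal or smooth muscle markers examined (COL1A1, COL1A2, COL3A1, ACTA2, TAGLN, PDGFRB, LUM and DCN) summed to between 96.2 and 132 FPKM in H1, 509 and 668 in APLNR+, 605 and 707 in CD31+CD34+ and 177 and 209 in CD43+ libraries, in that order, with 4, 6, 6 and 7 of the 8 at a mean of at least 1 FPKM and DCN at 0 in the H1 libraries. Of these 8, COL1A1 and COL1A2 had their highest mean in CD31+CD34+ cells, TAGLN and LUM in APLNR+ cells and the other 4 in CD43+ cells. The 6 endothelial markers (PECAM1, CDH5, KDR, PLVAP, ESAM and TEK) summed to between 27.6 and 33.5, 51.0 and 68.2, 611 and 851, and 319 and 415 FPKM in the same order, each of them but PECAM1 with its highest mean in CD31+CD34+ cells. The 6 endoderm or liver markers were FOXA2, SOX17, AFP, TTR, APOA1 and ALB. They summed to between 8.26 and 9.44, 19.0 and 22.0, 34.1 and 44.6, and 7.64 and 9.21 FPKM in this order. AFP had its highest mean in H1, TTR in CD43+ cells and the others in CD31+CD34+ cells, ALB at only 0.0436 FPKM. What part cells of these types have in the binding protein levels was not tested.

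IGFBP5 and IGFBP7 were raised in CD31+CD34+ cells and were above H1 in CD43+ cells as well. IGFBP5 had 0.148, 0.144 and 0.191 FPKM in H1, 0.434, 0.577 and 0.468 in APLNR+ cells, 3.36, 4.63 and 4.57 in CD31+CD34+ cells and 2.72, 3.595 and 3.50 in CD43+ cells. The last populations overlapped and did not pass the test (-0.28, adjusted p 0.0657, interval from -0.53 to -0.02), while the rise to CD31+CD34+ cells was 1.79 ± 0.12 (adjusted p 6.27e-08). IGFBP7, a secreted relative with low affinity for IGFs that is known in vessel walls, had 0.192, 0.101 and 0.219 FPKM in H1 and 1.86, 1.85 and 2.05 in APLNR+ cells. It had 9.93, 9.78 and 8.03 FPKM in CD31+CD34+ cells and 9.91, 11.9 and 10.9 in CD43+ cells. It was called at the first 2 steps, with changes of 1.32 ± 0.10 (adjusted p 5.05e-07) and 1.81 ± 0.10 (adjusted p 2.15e-08), and not at the last (0.22, adjusted p 0.0982, interval from -0.01 to 0.45). CD43+ cells exceeded H1 by 3.34 ± 0.10 for IGFBP7 (adjusted p 5.41e-11) and by 1.87 ± 0.12 for IGFBP5 (adjusted p 2.34e-08).

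IGFBP3, the main carrier of IGFs in blood plasma, was the only 1 of the 6 binding proteins with a negative change at the step to CD31+CD34+ cells. It had 0.756, 0.708 and 1.07 FPKM in H1, 3.46, 4.50 and 4.92 in APLNR+ cells, 1.74, 1.91 and 1.66 in CD31+CD34+ cells and 4.87, 5.69 and 6.78 in CD43+ cells. APLNR+ and CD43+ libraries were high and overlapped by a single pair, and CD31+CD34+ libraries were low. The rise at the first step was 1.52 ± 0.14 (adjusted p 1.41e-06) and that at the last 1.28 ± 0.14 (adjusted p 7.23e-06). The change between them was -0.92 ± 0.14 (adjusted p 5.77e-05), short of the limit on the log2(FPKM + 1) scale, although the mean FPKM in APLNR+ cells was 2.42 times that in CD31+CD34+ cells. It passed the limit with a pseudocount of 0.1 (-1.22) and with replicates 2 and 3 alone (-1.04).

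Summed over the 6 genes, binding protein transcripts came to 177 ± 31.2 FPKM (H1), 76.3 ± 12.8 (APLNR+), 472 ± 44.6 (CD31+CD34+) and 379 ± 35.8 FPKM (CD43+; SD, n = 3). The populations did not overlap in this sum. Its make-up differed as well. IGFBP2 held 89.1% of the sum in H1 and 55.3%, 44.5% and 81.4% at the following stages, and IGFBP4 held 4.71%, 26.3%, 46.4% and 12.4% in this order. IGFBP4 matched IGFBP2 in CD31+CD34+ cells, with ratios between 1.01 and 1.08 in the 3 libraries, and stood at between 0.0508 and 0.0565 of it in H1. Set against the summed FPKM of the 3 receptors, binding protein transcripts were 5.16 ± 1.48, 1.53 ± 0.295, 8.33 ± 2.09 and 11.6 ± 1.51 times as abundant from H1 to CD43+ cells. FPKM is a relative measure of RNA that depends on the scaling of each library. These sums are therefore not numbers of transcripts, and they say nothing of secreted protein.

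**Figure D4:**
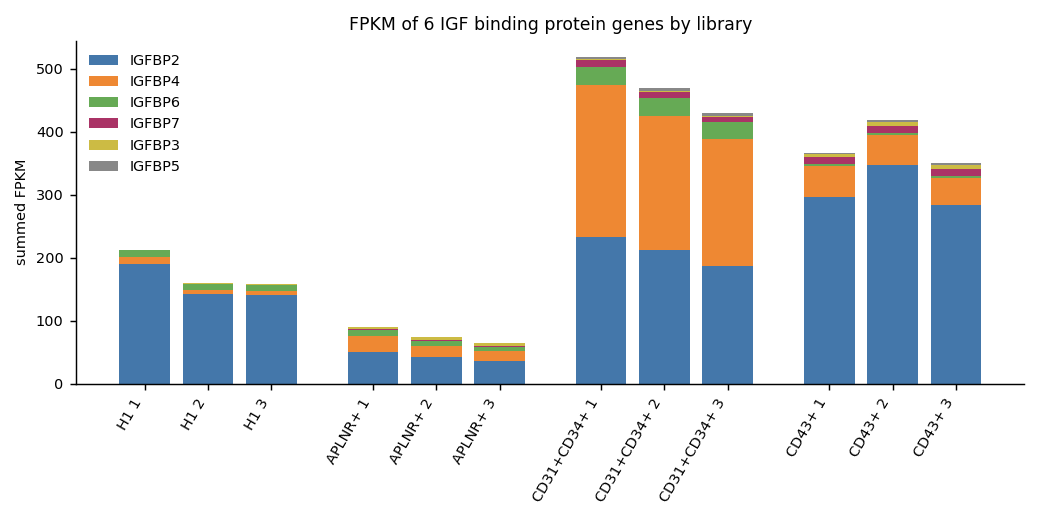
Summed FPKM (vertical axis, linear, from 0) of the 6 binding protein genes in each of the 12 libraries, stacked by gene. IGFBP2 fills most of each H1 and CD43+ bar, and IGFBP2 and IGFBP4 fill nearly equal parts of the CD31+CD34+ bars.

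IGFBP2 and IGFBP5 are neighbours on chromosome 2 in the RefSeq gene order. They nonetheless stood at different levels, 157 ± 28.4 against 0.161 ± 0.026 FPKM in H1 and 309 ± 33.9 against 3.27 ± 0.483 FPKM in CD43+ cells. At the first step IGFBP2 was lowered while IGFBP5 was 3.06 times as high in mean FPKM in APLNR+ cells as in H1, without overlap between libraries. On the log2(FPKM + 1) scale this was a change of 0.36 (adjusted p 0.0197), and with a pseudocount of 0.1 it was 1.18 and called. IGFBP3 likewise has IGFBP1 next to it on chromosome 7, and IGFBP1 was listed at no more than 0.0697 FPKM in any library.

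Promoter sequences are shown for the 3 binding proteins that were raised together at the step to CD31+CD34+ cells and have a single start in the RefSeq promoter table of GRCh38.p14, so that their first bases can be set side by side. The submitters' processing notes name hg19, and the coordinates here are of GRCh38.p14 only. Each run is the 100 bases before the transcript start, 5′ to 3′ on the gene's strand, with capitals for matches on either strand to a TATA-like motif (TATNNA), the core of a GC box (GGGCGG) or a CCAAT box, motifs that do not overlap here.
IGFBP4: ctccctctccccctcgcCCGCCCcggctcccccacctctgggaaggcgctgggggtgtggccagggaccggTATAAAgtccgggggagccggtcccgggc
IGFBP5: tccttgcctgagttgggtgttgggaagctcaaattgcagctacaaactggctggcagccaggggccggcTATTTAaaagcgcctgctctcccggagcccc
IGFBP6: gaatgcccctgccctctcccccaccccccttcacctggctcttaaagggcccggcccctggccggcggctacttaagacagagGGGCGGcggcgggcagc
They lie at chr17:40443350-40443449 (plus strand), chr2:216695550-216695649 (minus strand) and chr12:53097567-53097666 (plus strand). IGFBP4 and IGFBP5 hold a TATNNA match, beginning 29 and 31 bases before the start, and IGFBP6 holds none in this window. IGFBP4 and IGFBP6 hold a GGGCGG match, on the minus and the plus strand, and the CCAAT box was in none of the 3. Of 35116 promoters in the table, 23.6% hold the TATA-like motif, 31.3% the GC box core and 18.1% the CCAAT box in the same 100 bases. The G and C content was 76%, 59% and 72% for IGFBP4, IGFBP5 and IGFBP6. These matches describe the letters and show no bound factor.

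Genes with the most similar pattern were listed for the 6 of the 10 genes whose highest population mean was at least 10 FPKM, by Pearson correlation of log2(FPKM + 1) over the 12 libraries among 7718 genes at that level. The points share 4 populations, so high values are common. Nearest to IGFBP4 were EHD2, COL4A2 and FBLN2 (r of 0.994 each), whose highest means, 20.2, 226 and 101 FPKM, were those of CD31+CD34+ cells. COL4A2 encodes a basement membrane collagen chain and FBLN2 a fibulin of the extracellular matrix. Nearest to IGFBP7 were MAPKAPK2, SIRT2 and GATA2 (r from 0.996 to 0.997), of which GATA2, a transcription factor of blood progenitors, averaged 0.0689, 4.71, 50.3 and 90.6 FPKM along the series. Nearest to IGF2R were ZAP70, TNFAIP2 and CDC42EP1 (0.987 to 0.995), with ZAP70, a kinase best known from T cells, at 0.0375, 8.56, 70.4 and 2.29 FPKM. For IGFBP2 they were MKNK2, TIMM8B and STX10 (0.989 to 0.994), for IGFBP6 ITM2C, TNKS1BP1 and TYRO3 (0.977 to 0.981) and for IGF1R SLC7A6, TNKS and TTL (0.93 to 0.959).

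Other genes of the pathway were taken from a list of 61, of which 55 passed the filter. At the first step 3 were raised (STC1, PIK3R1 and AKT1) and 1 lowered (FOXO4), 7.27% of those tested, where 15.9% of all genes were called. This split was 4 and 0 with upper-quartile scaling. At the step to CD31+CD34+ cells 8 were raised and 8 lowered, 29.1% against 29.6% of all genes, and at the step to CD43+ cells 4 were raised and 5 lowered, 16.4% against 14.4%. The last split was 5 and 4 with quantile normalization. Between CD43+ and H1 cells 7 were raised and 11 lowered, 32.7% against 37.1% of all genes. These shares were close to or under the background, and the list as a whole is not set apart by them.

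Genes that act on the binding proteins changed by stage. STC1 and STC2 encode stanniocalcins, which inhibit the IGFBP protease PAPPA. The H1 libraries held STC1 at 3.11, 4.23 and 4.43 FPKM, APLNR+ libraries at 13.7, 18.4 and 18.8 FPKM and all others at no more than 0.573 FPKM, a log2 change of 1.87 ± 0.13 (adjusted p 2.12e-07) followed by 1 of -3.57 ± 0.13 (adjusted p 6.26e-10). STC2 had its highest mean in H1, 11.4 ± 0.439 FPKM, and changed by -1.90 ± 0.14 at the step to CD31+CD34+ cells (adjusted p 1.27e-07). HTRA1, a secreted serine protease with an IGFBP domain, reached 15.8, 16.5 and 17.4 FPKM in CD31+CD34+ cells from 2.27 ± 0.43 FPKM in APLNR+ cells (2.43 ± 0.12, adjusted p 4.12e-09) and returned to 4.33 ± 0.473 FPKM in CD43+ cells. PAPPA itself did not pass the filter and was highest in CD31+CD34+ cells at 0.809 ± 0.073 FPKM. IGFBPL1, a binding protein relative, had its highest mean in APLNR+ cells, 11.95 ± 1.41 FPKM, and was lowered at both later steps, to 0.533 ± 0.123 FPKM in CD43+ cells.

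Inside the cell, the named genes of the PI3K and AKT branch and the adaptors went different ways. AKT1, the kinase downstream of the receptors, averaged 15.5, 46.7, 91.6 and 67.2 FPKM along the series and was called at the first step (1.54 ± 0.12, adjusted p 4.12e-07). PIK3R1, a regulatory subunit of PI3K, was raised in APLNR+ cells, from 2.00 ± 0.459 to 10.1 ± 0.647 FPKM, and lowered to 3.28 ± 0.105 FPKM in CD31+CD34+ cells. INPP5D, a phosphatase of blood cells that acts on the PI3K product, was raised at both later steps and reached 26.2 ± 4.74 FPKM in CD43+ cells. SHC1, an adaptor of the MAPK branch, rose from 46.0 ± 5.82 to 183 ± 37.2 FPKM at the step to CD31+CD34+ cells, while IRS1, the adaptor next to the receptors, was lowered from 2.07 ± 0.151 to 0.414 ± 0.055 FPKM at the step to CD43+ cells. Also lowered at the step to CD31+CD34+ cells were PTPN11 and RPS6KB1, and also raised were MAPK3, MAP2K2 and TSC2. At the last step PIK3R3 was raised and HRAS lowered.

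**Figure D5:**
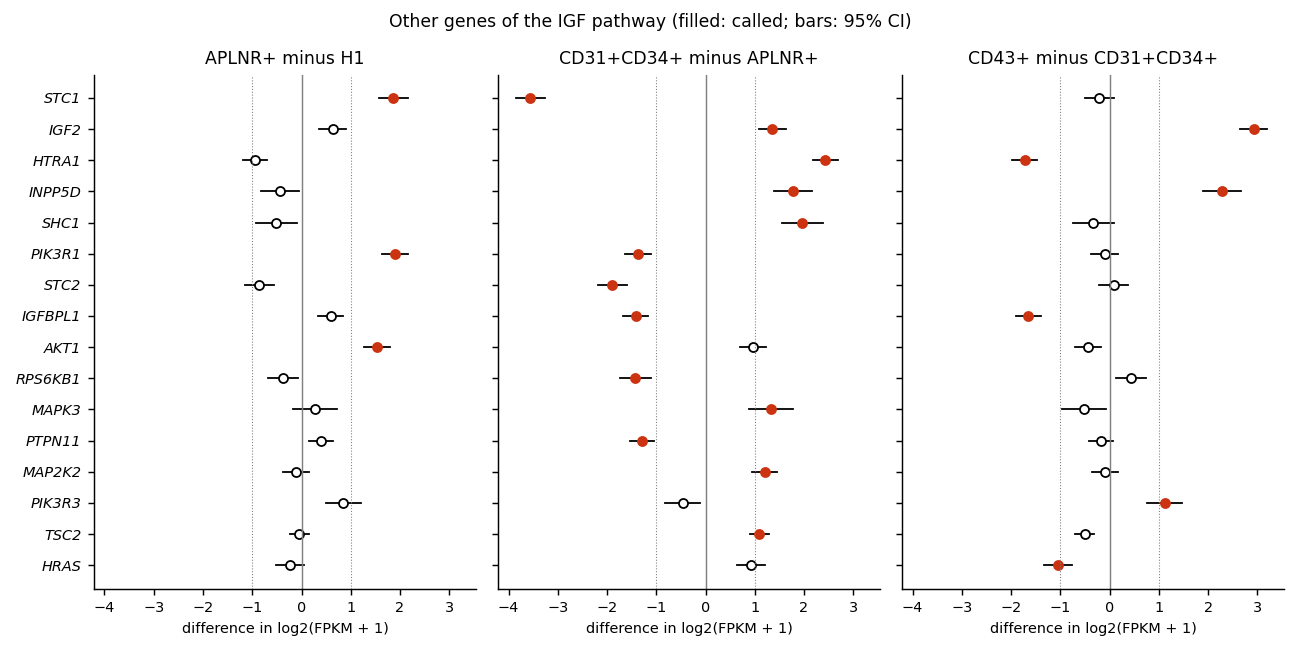
Fitted difference in log2(FPKM + 1) (horizontal axis) at the 3 consecutive steps for the 16 other pathway genes that reached a mean of 10 FPKM and were called at 1 or more of them, with 95% confidence intervals from limma; filled points are called and dotted lines mark a 2-fold change. STC1 has the largest change, -3.57 at the middle step, and IGF2 the largest at the last, 2.92.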

How the data were processed

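RNA-seq libraries of 12 samples, 3 each of H1, APLNR+, CD31+CD34+ and CD43+ cells, were grouped and numbered by their titles. The authors deposited a table of FPKM values, 1 column per library. The submitters' processing notes name BWA, Bowtie, RSEM and hg19 without roles or versions, and the annotation is not given in the sources used here. Of 58366 lines, 1 held text and was left out, and 345 symbols with more than 1 line were each represented by their highest line.

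Values were fitted as log2(FPKM + 1) with limma 3.58.1 in R 4.3.3 (lmFit, contrasts.fit, eBayes with trend, no covariate) on all 12 libraries, for 6 pairs of populations. Genes entered at 1 FPKM in at least 3 libraries. A run of the fit on simulated data drew independent noise for each library. These simulated data lacked the deviation, described below, that replicate 1 shared across populations. They give no error rate for the measured data. FPKM carries no read counts, and the number of libraries limits the precision: an exact permutation test of 3 against 3 cannot go below 0.1. Confidence intervals are from the fit. Python 3.11.15 read the table and drew the figures.

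A single gene of the pathway was left out of the list and is not reported here. The genes, the lists and the tests were chosen with earlier results of these data known. Pathway genes named were those with a population mean of at least 10 FPKM and a call at a consecutive step; FOXO4, IRS1, PAPPA, INS-IGF2, EEF1A1, IGFBP1 and the IGFBP domain genes of the closing section were added after their values were seen. Alternatives were a pseudocount of 0.1, no filter, upper-quartile and quantile scaling, the replicate number as a block, only the compared populations, replicates 2 and 3 alone, adjusted p alone, eBayes without trend, and leaving out each library.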

Additional observations from a re-analysis of the deposited data

How the results depend on the processing

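Without a minimum change, 9, 8 and 7 of the 10 genes passed an adjusted p of 0.05 at the consecutive steps in place of 4, 6 and 4, 10 between CD31+CD34+ and H1 (6 called) and 10 between CD43+ and APLNR+ cells (4 called). For the pathway list these counts were 31, 44 and 28, and 42 between CD43+ and H1. A pseudocount of 0.1 gave 11 and 14 pathway genes at the first and last step in place of 4 and 9. The calls over all 14840 genes grew as well. At the first step 1782 were raised and 1850 lowered in place of 1232 and 1131. At the last step 1427 were raised and 2178 lowered in place of 828 and 1305. Leaving out a library kept the counts of the 10 genes between 3 and 4, 6 and 7, and 4 and 5 at the consecutive steps. Of 1254 single-gene results under the alternatives 10 changed sign, all of IGF1R in differences that had not been called: CD31+CD34+ against APLNR+ cells was -0.12 with quantile normalization and from -0.14 to 0.25 with a library left out, and CD43+ against H1 was 0.053 with upper-quartile scaling, 0.038 with quantile normalization and from -0.30 to 0.088 with a library left out. A call was lost in 5, of IGFBP4 and INSR as given above, and 40 passed that had not. Of these 40, 22 came from adjusted p alone, which can only add calls, and 8 from the pseudocount of 0.1. The replicate number as a block changed no call of the 10 genes and left 4, 6 and 4 called at the consecutive steps. The numbers were not taken to pair the samples. After each gene's population mean was subtracted, correlations of same-numbered libraries ranged from -0.0214 to 0.429. Within each pair of populations that of replicate 1 was the highest (from 0.196 to 0.429), while the ranges of the replicates overlapped. With replicates 2 and 3 of other populations, replicate 1 correlated negatively, from -0.404 to -0.0611. The subtraction makes the deviations within a population cancel. Negative values there therefore follow in sum from the positive ones of replicate 1 and add no support. By its positive correlations alone, replicate 1 shared a deviation across the populations, and the source of this deviation was not tested. The 30 called changes of the 10 genes had the same sign within replicate 1 and within replicates 2 and 3, which is a description, since these libraries gave the calls. Depth limits IGF1, IGFBP5 and IGFBP7 most, which lay under 1 FPKM in every H1 library.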

Other observations

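A further list held 11 genes whose proteins carry an IGFBP domain without being classical IGF carriers, and 5 passed the filter. CYR61 and CTGF, matricellular proteins of the CCN family, were both raised from H1 to APLNR+ cells, from 3.97 ± 0.933 to 17.8 ± 1.59 FPKM and from 4.82 ± 0.717 to 15.7 ± 1.05 FPKM (SD, n = 3; limma adjusted p 2.21e-07 and 1.2e-07). CTGF was then lowered to 1.80 ± 0.118 FPKM in CD31+CD34+ cells, a log2 change of -2.58, while CYR61 had 10.2 ± 0.268 FPKM there, a change of -0.75 that passed the adjusted p (0.000429) but not the 2-fold limit, and was lowered to 2.46 ± 0.506 FPKM in CD43+ cells. KAZALD1, which passed the filter through its CD31+CD34+ libraries alone, was raised at the step to CD31+CD34+ cells, to 2.77 ± 0.715 FPKM, and lowered at the next to 0.292 ± 0.028 FPKM. HTRA3, a protease related to HTRA1, averaged 0.574, 1.15, 3.04 and 4.50 FPKM along the series and was called between CD43+ and H1 cells (1.80, adjusted p 2.04e-08). CRIM1 was not called at a consecutive step, with its highest mean in CD31+CD34+ cells at 17.9 ± 1.97 FPKM. ESM1, a gene of activated endothelium, did not pass the filter and averaged 0.442 ± 0.087 FPKM in CD31+CD34+ cells.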
